A study of Fragaria x ananassa with 28 samples.

Results

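The TIFY transcripts of strawberry fruit are the assembled mRNA forms whose best Swiss-Prot match is described as a protein TIFY. The rule, applied to the text of the match, found 79 transcripts among the 301219 of the assembly, in 18 assembly components and under 9 TIFY names. All 79 matched a protein of Arabidopsis thaliana, and 75 of them also had a jasmonate ZIM-domain term in the KEGG annotation. Of the 79, 16 transcripts in 12 components had at least 1 RPKM in at least 2 libraries and are reported here, and the other 63 were below that level. RPKM is a read count divided by the transcript's length and by the counted reads of its library.

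The series holds fruit of octaploid strawberry (Fragaria x ananassa) of the cultivar Toyonoka, grown in a greenhouse and injected 2 weeks after anthesis. Through the pedicel, 100 µL of solution was put into the core of the receptacle, which becomes the flesh of the berry. ABA fruit received abscisic acid at 1 µM and were sampled 5 and 8 days later. NDGA fruit received nordihydroguaiaretic acid at 100 µM, given by the labels as a blocker of ABA synthesis, and were sampled 5 and 8 days later. Water fruit received distilled water and were sampled at day 0, day 5 and day 8. Each of the 7 groups had 2 mRNA libraries, 14 in all, and 14 small RNA libraries of the series are not used here. Every group was a pool of RNA from 10 fruits, and the labels leave unsaid if its 2 libraries were made from 1 pool or from different ones. The p-values therefore measure a spread between libraries that may be technical. With the injection itself and the pedicel wound shared by all groups, no uninjected fruit enters these comparisons.

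JAZ proteins, the main branch of the TIFY family, are the repressors of jasmonate signalling. They bind MYC and related transcription factors and recruit the corepressor TOPLESS, either through the adaptor NINJA or directly. The active hormone, jasmonoyl-isoleucine, joins JAZ proteins to the receptor COI1, the F-box subunit of an SCF ubiquitin ligase, and the JAZ proteins are then degraded. Many JAZ genes are themselves transcribed in answer to jasmonate, so that repressors are made again after each signal. In strawberry, jasmonate treatment is known to promote anthocyanin accumulation, and NDGA is known from many tissues to inhibit lipoxygenases, the enzymes that begin jasmonate synthesis.

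The 14 mRNA libraries held 7356752 to 9035037 counted reads, so that 1 read on a 1 kb transcript was worth 0.111 to 0.136 RPKM. The 79 TIFY transcripts took 17531 reads in all, and the 16 reported ones held 98.7% of these. Changes were tested by limma, on the log2(RPKM + 1) scale, in the 99136 transcripts of any description that passed the same level rule, and a change was called at a Benjamini-Hochberg adjusted p below 0.05. Shares over all tested transcripts include many low ones. In a fit limited to the 28958 transcripts with at least 5 RPKM in at least 2 libraries, a larger share was called in every comparison. For ABA against water at day 8, 10852 of them were called. Sign and size are given as the first-named group over the second, and a fold change on this scale is understated for low transcripts. Seed storage transcripts, which mark the embryos of the achenes, made up a mean of 0.0134% of all RPKM in ABA fruit at day 5 and 0.00737% at day 8. They made up 0.0142% and 0.0126% in NDGA fruit at days 5 and 8, and 1.85%, 0.467% and 0.0208% in water fruit at days 0, 5 and 8. Heat shock transcripts took 3.80% and 9.89% in ABA fruit at days 5 and 8, 2.33% and 1.68% in NDGA fruit at days 5 and 8, and 0.741%, 1.21% and 0.961% in water fruit at days 0, 5 and 8. The 101 transcripts described by xylem markers took between 0.0679% and 0.146% in any library. The part of any of these in the TIFY results was not tested. In a bulk sample, fewer cells of a type and less RNA per cell cannot be told apart.

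TIFY 11A and TIFY 5A were the members that rose with ABA. TIFY 11A was 8.87-fold higher in ABA fruit than in water fruit at day 8 and was not called at day 5, whereas TIFY 5A was 8.78-fold higher at day 5 and 6.22-fold higher at day 8. TIFY 11A was also high in NDGA fruit on both days and in water fruit at day 0. TIFY 5A was low in NDGA fruit and in water fruit on every day sampled. The plot of both transcripts by library shows these patterns.

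**Figure D1:**
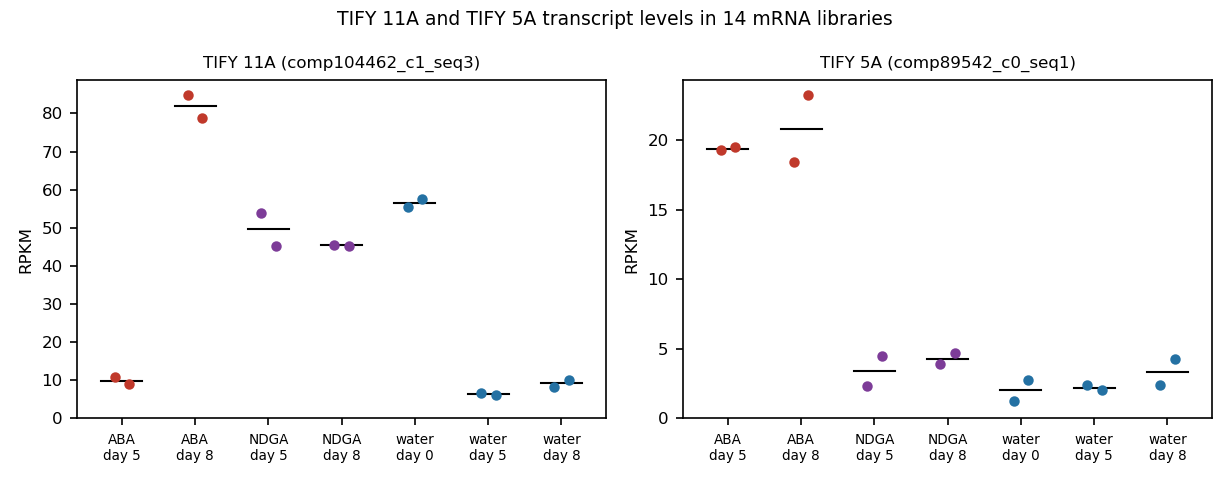
RPKM (linear axis) of TIFY 11A and TIFY 5A in the 14 mRNA libraries, by group; each point is a library and each black line the mean of 2. TIFY 11A lies at 78.9 to 84.8 in ABA fruit at day 8 and at 6.20 to 10.8 in ABA fruit at day 5 and water fruit at days 5 and 8, and TIFY 5A lies at 18.4 to 23.2 in the 4 ABA libraries and at 1.27 to 4.66 in the other 10.

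TIFY 11A was represented by comp104462_c1_seq3, a form of 987 bases whose Arabidopsis match, also called JAZ5, is a jasmonate-inducible repressor. Its RPKM was 10.8 and 8.93 in ABA fruit at day 5 and 84.8 and 78.9 in ABA fruit at day 8. It was 54.0 and 45.3 in NDGA fruit at day 5 and 45.6 and 45.2 in NDGA fruit at day 8. Its RPKM in water fruit was 55.5 and 57.5 at day 0, 6.56 and 6.20 at day 5, and 8.34 and 10.1 at day 8. The libraries thus fell into a low set, made of ABA fruit at day 5 and water fruit at days 5 and 8, and a high set made of the other 4 groups. These values rested on 45 to 694 reads per library. Neighbouring group means in descending order were 81.9 ± 4.18 in ABA fruit at day 8, 56.5 ± 1.41 in water fruit at day 0, 49.6 ± 6.14 in NDGA fruit at day 5 and 45.4 ± 0.252 in NDGA fruit at day 8. They continued with 9.87 ± 1.32 in ABA fruit at day 5, 9.23 ± 1.26 in water fruit at day 8 and 6.38 ± 0.259 in water fruit at day 5 (SD, n = 2 each). The libraries of NDGA fruit at day 5 and day 8 overlapped, as did those of ABA fruit at day 5 and water fruit at day 8. Water fruit at day 0 and NDGA fruit at day 5 differed by less than the sum of their SDs.

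In ABA fruit at day 8, TIFY 11A rose against water fruit at day 8 by 3.02 ± 0.15 on the log2 scale (SE, limma adjusted p = 2.6e-08). At day 5 the difference was 0.55 ± 0.15 (adjusted p = 0.10), with a 95% interval of 0.22 to 0.89, and the 2 groups did not overlap. The ABA difference at day 8 exceeded that at day 5 by 2.47 ± 0.22 (adjusted p = 2.3e-05). NDGA fruit were also above water fruit, by 2.77 ± 0.15 at day 5 (7.78-fold, adjusted p = 2.2e-07) and by 2.19 ± 0.15 at day 8 (4.92-fold, adjusted p = 6.9e-06). The NDGA difference was 0.59 smaller at day 8 than at day 5, which did not pass the test (adjusted p = 0.221). Set against each other, ABA fruit were lower than NDGA fruit at day 5 (log2 change of -2.22, adjusted p = 1.0e-06) and higher at day 8 (0.84, adjusted p = 0.0029). In a fit on the compared groups alone, the ABA increase at day 8 kept its call (adjusted p = 0.035), while the NDGA increases did not (adjusted p = 0.0974 at day 5 and 0.168 at day 8), nor did ABA against NDGA at day 5 (adjusted p = 0.0711). The seed storage share was 0.00737% to 0.0208% in the groups compared here except water fruit at day 5, where it was 0.467%.

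In water fruit, TIFY 11A fell by 2.96 ± 0.15 at day 5 against day 0 (adjusted p = 4.4e-08) and by 2.50 ± 0.15 at day 8 against day 0 (adjusted p = 2.1e-07). The level was 8.86-fold lower at day 5 and 6.12-fold lower at day 8 than at day 0. Between day 8 and day 5 the difference was 0.47 (adjusted p = 0.123). Alongside, the seed storage share was 0.467% at day 5 and 0.0208% at day 8, against 1.85% at day 0.

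TIFY 5A was represented mainly by comp89542_c0_seq1, a form of 873 bases. Its Arabidopsis match, also called JAZ8, lacks the usual degron and so resists hormone-driven degradation, and it recruits TOPLESS directly. Its RPKM was 19.2 and 19.5 in ABA fruit at day 5 and 18.4 and 23.2 in ABA fruit at day 8. It was 2.35 and 4.44 in NDGA fruit at day 5 and 3.92 and 4.66 in NDGA fruit at day 8. Water fruit had 1.27 and 2.77 at day 0, 2.39 and 2.02 at day 5, and 2.42 and 4.26 at day 8. The lowest ABA library was above the highest of the other 10, and the ABA groups overlapped each other. Among the NDGA and water groups, neighbours in the order of means differed by less than the sum of their SDs. The values rested on 10 to 168 reads per library.

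TIFY 5A rose in ABA fruit against water fruit by 2.67 ± 0.32 at day 5 (adjusted p = 0.00038) and by 2.35 ± 0.32 at day 8 (adjusted p = 0.00028). The 2 ABA differences were not distinguishable, with day 8 minus day 5 at -0.32 and a 95% interval of -1.30 to 0.67. Against NDGA fruit, ABA fruit were higher by 2.25 at day 5 (adjusted p = 0.00071) and by 2.04 at day 8 (adjusted p = 0.00092). NDGA fruit differed from water fruit by 0.42 at day 5 (95% interval -0.28 to 1.11) and by 0.31 at day 8 (-0.38 to 1.01), and neither passed. The 4 ABA calls held with any 1 library left out and were lost in fits on the 2 compared groups alone, with adjusted p between 0.0535 and 0.127. The heat shock share was also highest in the ABA groups, and 1.68% to 2.33% in NDGA fruit.

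A second TIFY 5A form, comp91053_c0_seq1, of another component and 802 bases, had lower levels. Its RPKM was 6.94 and 7.38 in ABA fruit at day 5 and 3.46 and 3.31 in ABA fruit at day 8. It was 2.27 and 3.13 in NDGA fruit at day 5 and 0.790 and 0.435 in NDGA fruit at day 8. Its level in water fruit was 3.31 and 2.41 at day 0, 2.60 and 0.170 at day 5, and 1.17 and 1.45 at day 8. ABA fruit at day 5 stood above every other group. The form rose in ABA fruit at day 5 against water fruit by 1.99 (adjusted p = 0.029) and at day 8 against NDGA fruit by 1.45 (adjusted p = 0.048), and at day 8 against water fruit the difference was 0.93 (adjusted p = 0.196). The first of these calls was lost without either library of ABA fruit at day 5 or day 8, either of water fruit at day 0 or the second of water fruit at day 5, with log2 changes of 1.18 to 2.03 and adjusted p of 0.0502 to 0.219. The second was lost without any 1 of 12 of the 14 libraries, all but those of water fruit at day 5, with log2 changes of 1.29 to 1.61 and adjusted p of 0.0625 to 0.20.

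Of the 16 reported transcripts, 2 (both TIFY 5A) rose and 0 fell with ABA at day 5, where 2.16% of all tested transcripts were called, 1.21% as higher and 0.956% as lower. Without any of the 7 libraries named above for the second TIFY 5A form, 1 of the 2 was left. At day 8, 2 rose (TIFY 11A and the first TIFY 5A form) and 3 fell with ABA, where 13.3% of all tested transcripts were called, 4.30% as higher and 8.98% as lower. Under median-ratio scaling of the libraries, 6311 of all tested transcripts were higher and 5939 lower in that comparison, and 2 of the 16 were higher and 2 lower. The median log2 change of the 16 was 0.00 at day 5 and -0.63 at day 8, and that of all tested transcripts was 0.00 at day 5 and -0.20 at day 8. The 16 were kept by their level, so that these counts are a description only. A test of the ABA difference between the days called 1 of the 16 (TIFY 11A), where 3.69% of all tested transcripts were called, 1.15% as higher and 2.54% as lower.

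With NDGA, 2 of the 16 rose at day 5 (TIFY 11A and a TIFY 3B form), where 2.03% of all tested transcripts were called, 1.23% as higher and 0.802% as lower. At day 8, 1 rose (TIFY 11A), where 2.18% were called, 0.705% as higher and 1.48% as lower, and 0 fell at either day. At an unadjusted p below 0.05, 6 of the 16 differed at day 5, against 12.6% of all tested transcripts, and 1 at day 8, against 13.2%. The TIFY 3B call was lost without each of 12 of the 14 libraries, the exceptions being those of ABA fruit at day 5, with log2 changes of 0.87 to 1.05 and adjusted p of 0.0567 to 0.245, which leaves 1. No member was called for a difference between the NDGA changes at day 8 and day 5, where 2.65% of all tested transcripts were called, 0.857% as higher and 1.79% as lower, and 2 of the 16 had an unadjusted p below 0.05 in limma, as had 14.1% of all tested transcripts. Without the first library of water fruit at day 5, 1 member was called.

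Between ABA and NDGA fruit at day 5, 1 of the 16 was higher (TIFY 5A) and 6 were lower in ABA fruit, where 6.45% of all tested transcripts were called, 3.05% as higher and 3.40% as lower. At day 8, 3 were higher (TIFY 11A and both TIFY 5A forms) and 4 lower, where 11% were called, 3.95% as higher and 7.07% as lower. Under median-ratio scaling, 5986 of all tested transcripts were higher and 3974 lower there, and 3 of the 16 were higher and 3 lower. The comparisons with water and with NDGA share the ABA libraries. The day 5 count of 7 was 3 without either library of ABA fruit at day 5 or the first of NDGA fruit at day 5, and 4 without the second of NDGA fruit at day 5. Of all 40 calls on the 16 transcripts, 7 were kept in fits on the compared groups alone. They are those of TIFY 11A in water fruit at both later days, in ABA fruit at day 8 against water and against NDGA and between the ABA differences, and those of TIFY 3B comp106511_c0_seq2 in water fruit at both later days. The heat map sets the 9 comparisons of 2 groups side by side.

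**Figure D2:**
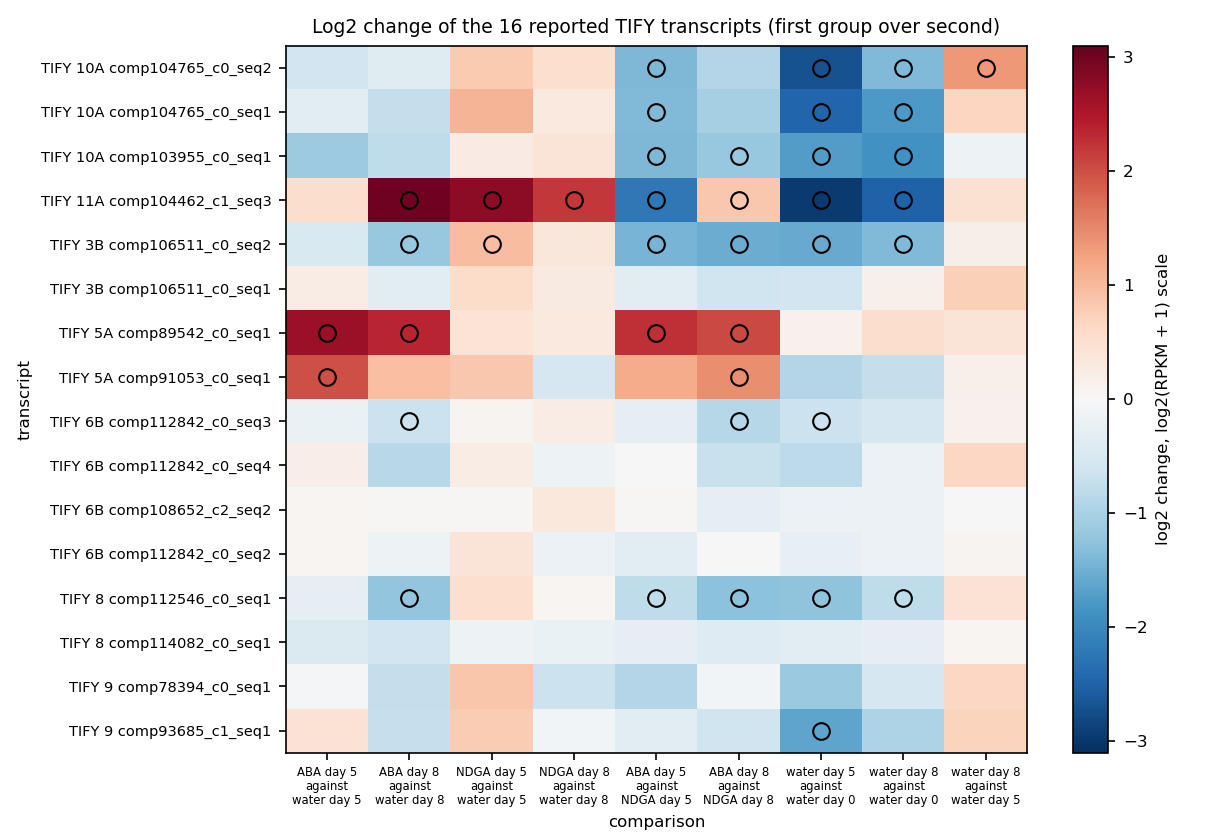
Log2 change, on the log2(RPKM + 1) scale, of the 16 reported TIFY transcripts (one per line) in 9 comparisons of 2 groups (columns, first-named over second-named group); red is higher, blue lower, and a circle marks a limma adjusted p below 0.05. TIFY 11A ranges from -2.96 (water day 5 against day 0) to 3.02 (ABA day 8 against water day 8), and TIFY 5A comp89542_c0_seq1 is called in the 4 comparisons with ABA only.

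In water fruit the TIFY transcripts that changed after day 0 were lower. At day 5, 8 of the 16 had fallen and 0 had risen against day 0, where 12.9% of all tested transcripts were called, 4.98% as higher and 7.90% as lower. In the fit limited to transcripts with at least 5 RPKM in at least 2 libraries, 5051 of 28958 were higher and 5177 lower there. At day 8, 6 had fallen and 0 had risen against day 0, where 10.6% were called, 4.87% as higher and 5.68% as lower. Those lower at both days were TIFY 11A, a TIFY 3B form, a TIFY 8 form and the 3 TIFY 10A forms. A TIFY 6B and a TIFY 9 form were lower at day 5 alone, and the difference between the days did not pass for either. The median log2 change of the 16 was -1.02 at day 5 and -0.63 at day 8, and that of all tested transcripts was -0.03 and 0.00. Water fruit at day 8 had 1 of the 16 above day 5 (a TIFY 10A form), where 4.67% were called, 2.89% as higher and 1.78% as lower. The day 8 count of 6 was 3 without the first library of water fruit at day 0. The seed storage share, with 53 of 69 tested transcripts lower at day 5 and 58 lower at day 8 than at day 0, moved in the same direction against day 0. From day 5 to day 8 it fell further, from 0.467% to 0.0208%, with 44 of the 69 lower. Over that step the median log2 change of the 16 TIFY transcripts was 0.43, against 0.04 for all tested transcripts, with the 1 call given above. The 16 lie in 12 components, so they do not count as separate genes. The part of the achenes in these changes was not tested.

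TIFY 10A matches the Arabidopsis repressor also called JAZ1, among the first JAZ proteins found to be degraded through COI1. It had 3 forms, each highest in water fruit at day 0. The form comp104765_c0_seq2 had 0.448 and 0.292 RPKM in ABA fruit at day 5, 2.61 and 3.45 in ABA fruit at day 8, 3.17 and 2.12 in NDGA fruit at day 5 and 5.69 and 7.37 in NDGA fruit at day 8. In water fruit it had 14.9 and 10.4 at day 0, 1.16 and 0.947 at day 5, and 5.91 and 2.88 at day 8. Every group of 2 libraries lay below water fruit at day 0. It fell by 2.71 at day 5 against day 0 (adjusted p = 0.00012) and by 1.38 at day 8 against day 0 (adjusted p = 0.0173), and it was 1.33 higher at day 8 than at day 5 (adjusted p = 0.037). ABA fruit at day 5 were below NDGA fruit (-1.40, adjusted p = 0.0233), with 3 to 5 reads per ABA library behind the level.

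The form comp104765_c0_seq1 of the same component averaged 0.487 RPKM in ABA fruit at day 5, 0.859 in ABA fruit at day 8, 2.84 in NDGA fruit at day 5 and 2.66 in NDGA fruit at day 8. In water fruit it averaged 9.11, 0.835 and 1.94 at days 0, 5 and 8. The third form, comp103955_c0_seq1 of another component, averaged 0.265, 0.434, 2.36 and 2.28 in the same ABA and NDGA groups and 8.13, 1.76 and 1.47 in water fruit at days 0, 5 and 8. Both fell in water fruit after day 0, comp104765_c0_seq1 by 2.46 at day 5 and 1.78 at day 8 and comp103955_c0_seq1 by 1.72 at day 5 and 1.88 at day 8 (adjusted p between 0.00058 and 0.0064). ABA fruit were below NDGA fruit for comp104765_c0_seq1 at day 5 (-1.38, adjusted p = 0.0405) and for comp103955_c0_seq1 at day 5 (-1.39, adjusted p = 0.0203) and day 8 (-1.18, adjusted p = 0.0324). The 3 forms added up to 1.12 ± 0.0260 RPKM in ABA fruit at day 5, against 3.65 ± 0.0115 in water fruit at day 5 and 29.9 ± 5.37 in water fruit at day 0 (SD, n = 2 each). At day 5 each form was lower in ABA than in water fruit without overlap, and none was called. The log2 changes were -1.13 for comp103955_c0_seq1, -0.59 for comp104765_c0_seq2 and -0.32 for comp104765_c0_seq1 (limma adjusted p = 0.112, 0.534 and 0.822).

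Several of these TIFY 10A calls rest on single libraries. Without the first library of water fruit at day 0, the day 8 falls of comp104765_c0_seq1 and comp104765_c0_seq2 were lost, as they were without the first (comp104765_c0_seq1) or second (comp104765_c0_seq2) library of day 8, with adjusted p of 0.0575 to 0.0600 and 0.138 to 0.164. The rise of comp104765_c0_seq2 at day 8 over day 5 was lost without each of 7 libraries, both of water fruit at day 5, the first of water fruit at day 8 and all of ABA and NDGA fruit at day 8 (adjusted p of 0.0501 to 0.274). The 4 lower levels in ABA than in NDGA fruit were also lost with 1 library left out, with adjusted p up to 0.209. Leaving out either library of the 2 groups ended them, save the second of NDGA fruit at day 5 for comp103955_c0_seq1. For comp104765_c0_seq1 the removal of any library of water fruit ended the call too, and for comp103955_c0_seq1 at day 8 quantile or median-ratio scaling did. A pseudocount of 0.1 ended both day 8 falls named here.

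TIFY 3B matches the Arabidopsis protein also called JAZ12, and its component comp106511_c0 had 2 forms of nearly the same length, 1226 and 1242 bases, that behaved differently. The form comp106511_c0_seq2 had 4.25 and 7.19 RPKM in ABA fruit at day 5, 3.64 and 3.64 in ABA fruit at day 8, 18.0 and 15.7 in NDGA fruit at day 5 and 13.2 and 11.6 in NDGA fruit at day 8. Its RPKM in water fruit was 26.7 and 25.5 at day 0, 7.93 and 8.43 at day 5, and 9.78 and 9.19 at day 8. ABA fruit were the lowest group on each day and NDGA fruit the highest of days 5 and 8. It fell with ABA at day 8 by 1.18 against water (adjusted p = 0.0028), and the day 5 difference of -0.48 did not pass (adjusted p = 0.387). It was lower in ABA than in NDGA fruit by 1.44 at day 5 and 1.53 at day 8 (adjusted p = 0.0011 and 0.00042), and it was higher in NDGA than in water fruit at day 5 (0.96, adjusted p = 0.041) in a call that single libraries decide, as given above. In water fruit it fell by 1.56 at day 5 and by 1.37 at day 8 against day 0 (adjusted p = 0.00035 and 0.0011).

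The form comp106511_c0_seq1 had 9.61 and 13.3 RPKM in ABA fruit at day 5, 12.1 and 13.4 in ABA fruit at day 8, 13.9 and 15.1 in NDGA fruit at day 5 and 20.4 and 20.0 in NDGA fruit at day 8. Water fruit had 14.3 and 15.3 at day 0, 9.03 and 9.85 at day 5, and 13.6 and 19.8 at day 8. The highest group mean was 2.14 times the lowest, and no comparison was called for it, the smallest adjusted p being 0.0614 (water fruit at day 8 against day 5). Reads that both forms share could be assigned to either by the authors' counting, so the split between them is uncertain. Forms of a component can be alleles, subgenome copies or splice forms.

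TIFY 8, which in Arabidopsis belongs to neither the JAZ nor the PEAPOD branch and acts as a repressor with NINJA and TOPLESS, was represented mainly by comp112546_c0_seq1 of 1883 bases. It had 5.05 and 4.88 RPKM in ABA fruit at day 5, 3.72 and 2.82 in ABA fruit at day 8, 9.37 and 9.21 in NDGA fruit at day 5 and 8.74 and 9.87 in NDGA fruit at day 8. Its level in water fruit was 15.99 and 16.1 at day 0, 6.08 and 6.28 at day 5, and 8.11 and 9.62 at day 8. The ABA libraries were the lowest of the 14. It fell with ABA at day 8 by 1.21 against water (adjusted p = 0.0013), or by 1.02 relative to the median of all transcripts, and by 1.28 against NDGA (adjusted p = 0.00096). At day 5 ABA fruit were 0.79 below NDGA fruit (adjusted p = 0.0354), a call lost without any 1 of the 4 libraries compared (adjusted p of 0.119 to 0.150). In water fruit it fell by 1.25 at day 5 (adjusted p = 0.0011) and by 0.79 at day 8 against day 0 (adjusted p = 0.0236), and the second call was lost without any 1 of its 4 libraries (adjusted p of 0.0551 to 0.145).

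TIFY 6B matches the Arabidopsis repressor also called JAZ3, and its main form comp112842_c0_seq3 of 1576 bases was among the most abundant members. It had 15.96 and 12.9 RPKM in ABA fruit at day 5, 12.2 and 10.8 in ABA fruit at day 8, 17.2 and 18.6 in NDGA fruit at day 5 and 22.8 and 21.01 in NDGA fruit at day 8. In water fruit it had 28.5 and 26.1 at day 0, 16.9 and 16.8 at day 5, and 18.2 and 19.1 at day 8. Its highest group mean was 2.38 times its lowest, with water fruit at day 0 above and ABA fruit at day 8 below all others. It fell with ABA at day 8 by 0.66 against water (adjusted p = 0.0155) and by 0.88 against NDGA (adjusted p = 0.0027), and it fell by 0.66 in water fruit at day 5 against day 0 (adjusted p = 0.0149). The fall with ABA against water was lost without either library of water fruit at day 8 or the second of ABA fruit at day 8 (adjusted p of 0.0585 to 0.10) and under median-ratio or quantile scaling (up to 0.159). The day 5 fall in water fruit was lost without the first library of day 0 or either of day 5 (adjusted p of 0.0704 to 0.0743).

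**Figure D3:**
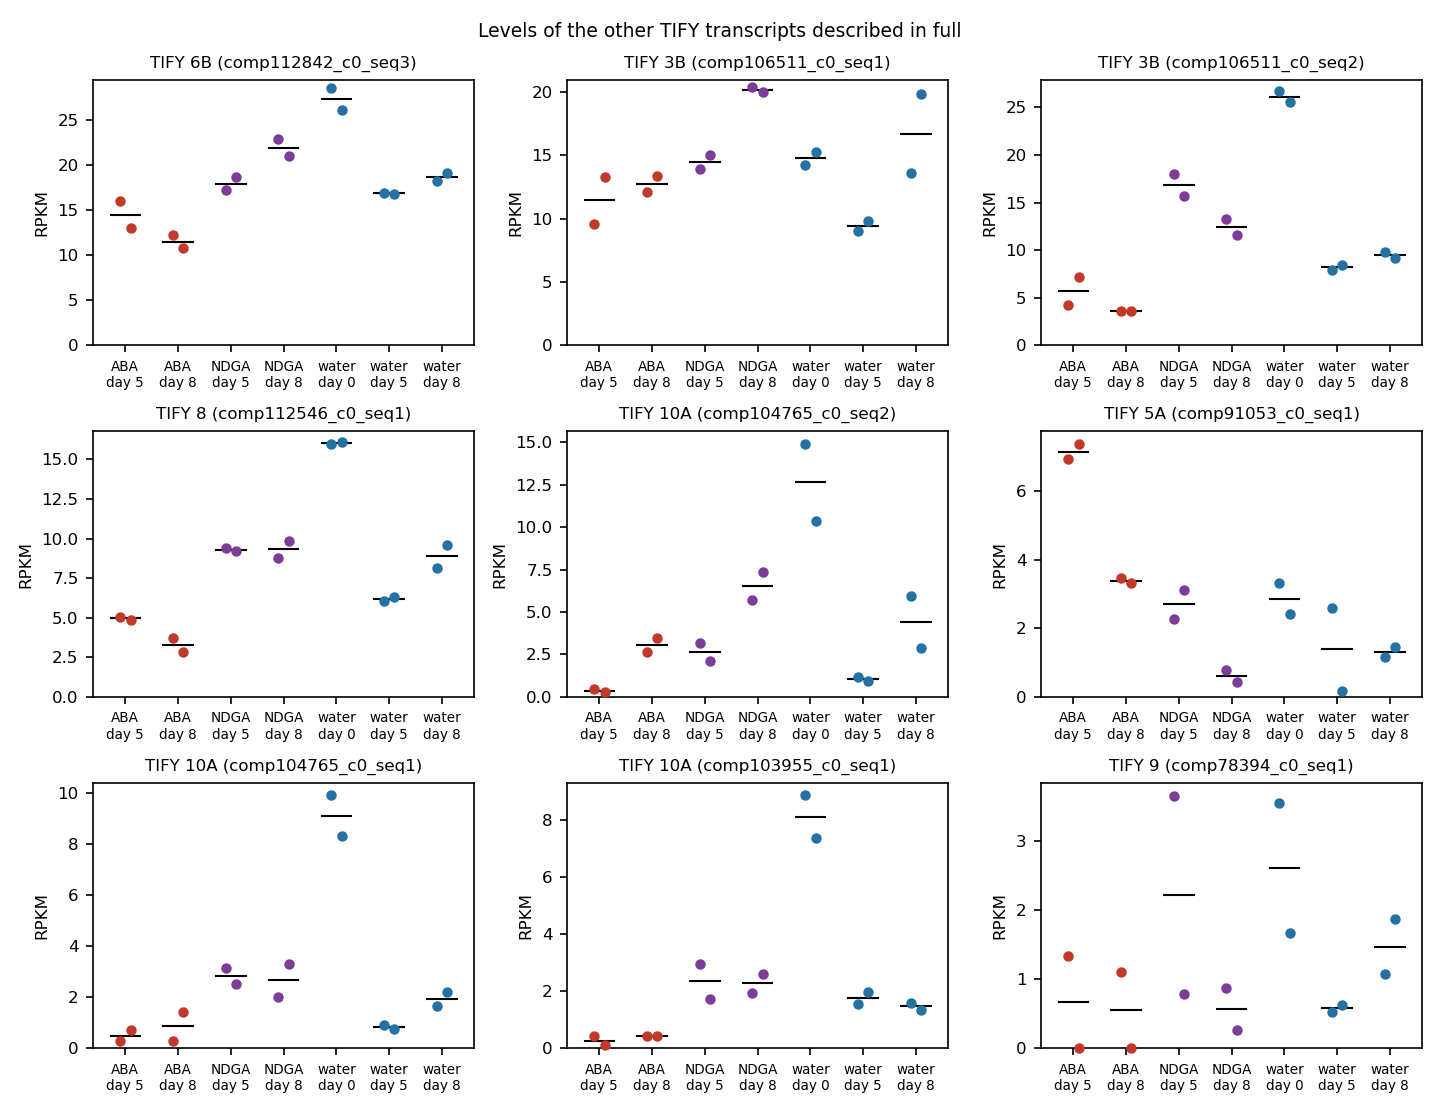
RPKM (linear axis, scaled per panel) of 9 further TIFY transcripts in the 14 mRNA libraries, by group; each point is a library and each black line the mean of 2. Water fruit at day 0 are the highest group for TIFY 6B, TIFY 3B comp106511_c0_seq2, TIFY 8 and the 3 TIFY 10A forms, and ABA fruit at day 5 for TIFY 5A comp91053_c0_seq1.

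The other members were low or noisy. TIFY 9, whose Arabidopsis match is also called JAZ10 and is known for splice forms that resist degradation, had 2 short forms of 436 and 454 bases with 123 reads in all. comp78394_c0_seq1 had 1.33 and 0 RPKM in ABA fruit at day 5, 1.11 and 0 in ABA fruit at day 8, 3.66 and 0.785 in NDGA fruit at day 5 and 0.872 and 0.267 in NDGA fruit at day 8. Its RPKM in water fruit was 3.55 and 1.66 at day 0, 0.531 and 0.624 at day 5, and 1.08 and 1.86 at day 8, and no comparison was called. comp93685_c1_seq1 lay between 0 and 3.19 RPKM and fell in water fruit at day 5 against day 0 by 1.64 (adjusted p = 0.0278). That call was lost without either library of day 0 or the first of day 5 (adjusted p of 0.0897 to 0.185). The other 3 TIFY 6B forms and the other TIFY 8 form were called in no comparison. Their group means were 5.86 to 12.4 RPKM for comp112842_c0_seq4, 2.53 to 3.41 for comp108652_c2_seq2, 0.408 to 0.984 for comp112842_c0_seq2 and 0.133 to 1.12 for the TIFY 8 form comp114082_c0_seq1.

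TIFY 4A and TIFY 4B, matches of the Arabidopsis PEAPOD proteins that restrain growth of leaf meristemoid cells, had almost no reads on their described forms. Of 30 such forms, 29 had 0 reads in every library and 1 held 30 reads over all 14. That form, comp109058_c0_seq3, was just outside the level rule with a highest value of 1.61 RPKM in 1 library, as were a TIFY 8 form (comp114082_c0_seq2, 1.35) and a second TIFY 11A form (comp104462_c0_seq3, 1.18). Of the 63 transcripts that were not reported, 49 had 0 reads in every library. A component can also hold its reads on a form with no TIFY description: comp113586_c2 had 11 TIFY 6B forms with 8 reads, while its undescribed form comp113586_c2_seq4 of 558 bases had group means of 6.27 to 17.6 RPKM. In the TIFY 4 components, undescribed forms held 91 reads (comp109058_c0_seq5, at most 3.75 RPKM) and 36 reads (comp107333_c0_seq2, at most 2.85 RPKM). The first of these averaged 2.76 ± 0.825 RPKM in water fruit at day 8 and had 0 reads in both libraries of day 0 (called as higher, limma adjusted p = 0.011). In the TIFY 11A component, the undescribed comp104462_c1_seq4 held 78 reads and reached at most 4.75 RPKM.

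Summed over all 79 transcripts, TIFY mRNA came to 88.2 ± 0.0342 RPKM in ABA fruit at day 5, 153 ± 3.70 in ABA fruit at day 8, 140 ± 4.02 in NDGA fruit at day 5 and 143 ± 1.93 in NDGA fruit at day 8. The sum in water fruit was 200 ± 9.87 at day 0, 66.0 ± 0.332 at day 5 and 93.6 ± 5.48 at day 8 (SD, n = 2 each). TIFY 11A comp104462_c1_seq3 made up 11.2% of it in ABA fruit at day 5, 53.5% in ABA fruit at day 8, 35.3% and 31.8% in NDGA fruit at days 5 and 8, and 28.3%, 9.66% and 9.83% in water fruit at days 0, 5 and 8. TIFY 5A comp89542_c0_seq1 made up 21.9% and 13.6% in ABA fruit at days 5 and 8, 2.44% and 3.01% in NDGA fruit, and 1.02% to 3.53% in water fruit.

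The 14 libraries come from 7 groups, so correlations across them only describe how alike the patterns were. Pearson's r of log2(RPKM + 1) was 0.95 between TIFY 3B comp106511_c0_seq2 and TIFY 8 comp112546_c0_seq1, 0.95 between TIFY 8 and TIFY 6B comp112842_c0_seq3, and 0.90 between TIFY 3B comp106511_c0_seq2 and TIFY 10A comp103955_c0_seq1. TIFY 5A comp89542_c0_seq1 ran opposite to that set, with r of -0.77 to TIFY 6B, -0.79 to TIFY 3B and to TIFY 8, and -0.81 to TIFY 10A comp103955_c0_seq1. TIFY 11A had r of 0.13 to TIFY 5A, 0.11 to TIFY 6B, 0.14 to TIFY 8, 0.24 to TIFY 3B and 0.31 to TIFY 10A in the same forms. Its highest values were to the TIFY 10A forms comp104765_c0_seq2 and comp104765_c0_seq1 (0.59 and 0.46) and to TIFY 3B comp106511_c0_seq1 (0.43).

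Among 9555 described transcripts with a group mean of at least 10 RPKM, those most like TIFY 11A were a pair of mitochondrial uncoupling protein 4 transcripts (r = 0.90 and 0.85), a thiamine thiazole synthase (0.86), a class I small heat shock protein (comp107291_c2_seq1, 0.85) and the receptor-like kinase HAIKU2 (0.84). The uncoupling protein transcript comp111669_c0_seq6, which codes for a carrier of the mitochondrial inner membrane, averaged 19.9 RPKM in ABA fruit at day 5, 73.5 in ABA fruit at day 8, 52.5 and 40.6 in NDGA fruit at days 5 and 8, and 89.8, 22.6 and 19.3 in water fruit at days 0, 5 and 8. Those most like TIFY 5A were a probable glutathione S-transferase (0.95), glutathione S-transferase F11 (0.94), heat stress transcription factors B-2a and B-2b (0.94 and 0.93) and the DeSI-like protein At4g17486 (0.93). The first of these (comp106330_c0_seq12), of a family of detoxifying enzymes, averaged 139 and 201.1 RPKM in ABA fruit at days 5 and 8, 22.0 and 40.5 in NDGA fruit, and 12.6, 22.7 and 33.2 in water fruit at days 0, 5 and 8. All r are over 14 libraries that share groups and depth.

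In the authors' deposited table of differentially expressed genes, TIFY 11A comp104462_c1_seq3 and TIFY 8 comp112546_c0_seq1 were the listed TIFY transcripts, both in cluster 2 of 9. TIFY 8 was also among the 20 transcripts in the authors' deposited table on hormone signal transduction.

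Around the TIFY repressors, jasmonate synthesis was the pathway list with most calls in ABA fruit at day 8. Of 61 tested transcripts of this list, which holds lipoxygenases, allene oxide synthases and cyclases, 12-oxophytodienoate reductases, the phospholipase DAD1 and a 4-coumarate-CoA ligase-like protein, 24 fell and 2 rose with ABA at day 8, and the median log2 change was -0.79, against -0.20 for all tested transcripts. Of all tested transcripts, 8.98% were lower and 4.30% higher there. In the fit limited to transcripts with at least 5 RPKM in at least 2 libraries, 7636 of 28958 were lower and 3216 higher. At day 5, 2 fell and 1 rose, or 4.92% of the list, where 2.16% of all tested transcripts were called. By enzyme, the day 8 falls were 3 of 5 transcripts described as 9S-lipoxygenases and 5 of 16 for the other lipoxygenases, whose branch the descriptions were not used to settle. They were 3 of 4 for allene oxide synthases, 4 of 7 for allene oxide cyclases and 8 of 23 for 12-oxophytodienoate reductases. Which of these reductases act in jasmonate synthesis was not settled from the descriptions either. The phospholipase and ligase-like transcripts had 1 of 6. Linoleate 9S-lipoxygenase 5 (comp111446_c0_seq1), of the branch of lipoxygenases that does not lead to jasmonate, had 58.6 and 53.3 RPKM in ABA fruit at day 8, against 187 and 200.7 in water fruit at day 8. That was a fall of 1.78 (adjusted p = 1.1e-08), and at day 5 it fell by 0.52 (adjusted p = 0.0038). With NDGA 4 of the 61 rose and 2 fell at day 5 (9.84% of the list, against 2.03% of all tested transcripts), and 3 rose and 6 fell at day 8 (14.8%, against 2.18%). In water fruit 7 rose and 10 fell at day 8 against day 0 (27.9%, against 10.6%). Among those that rose was 12-oxophytodienoate reductase 2 (comp99452_c0_seq3), with 34.5 ± 13.1 RPKM at day 8, against 2.24 ± 0.316 at day 0 (SD, n = 2 each; log2 change of 3.41, adjusted p = 1.8e-05).

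The described forms of the receptor were hardly covered. The 23 transcripts described as COI1 held 26 reads in all, 22 of them had 0 reads everywhere, and the highest value was 0.254 RPKM, so no change could be detected on them. Undescribed forms of their components were not examined, so the level of COI1 mRNA as a whole is not known from these values. Of 48 tested SCF subunit transcripts, 2 rose and 0 fell with ABA at day 5 (4.17% of the list, against 2.16% of all tested transcripts). At day 8, 3 rose and 4 fell (14.6%, against 13.3%), a share near that of all transcripts. Cullin-1 (comp114188_c1_seq2), the scaffold of the ligase, had 79.9 and 90.4 RPKM in ABA fruit at day 8, against 41.5 and 40.6 in water fruit at day 8 (log2 change of 1.03, adjusted p = 3.8e-05). Its level was also higher in NDGA fruit at day 8, at 77.3 ± 1.43 RPKM (0.90 against water, limma adjusted p = 0.00072). ABA against NDGA at day 8 was not called (0.14, adjusted p = 0.515). Water fruit at day 5 had 93.1 ± 6.26 RPKM, so the rise was not particular to ABA. A transcript of SKP1-like protein 1A, the adaptor between cullin and F-box protein, was higher in ABA fruit at day 5 (comp98548_c0_seq3, 9.95 ± 4.10 RPKM, against 1.54 ± 0.457 in water fruit, adjusted p = 0.0067). Another was higher in water fruit at day 8 than at day 0 (comp98548_c1_seq3, 22.6 ± 3.29 RPKM, against 1.96 ± 0.523, adjusted p = 1.1e-05).

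Of 44 tested corepressor and adaptor transcripts (TOPLESS family and NINJA family), 2 rose and 0 fell with ABA at day 5, where 2.16% of all tested transcripts were called, and 4 rose and 4 fell at day 8 (18.2% of the list, against 13.3%). Topless-related protein 4 (comp108849_c0_seq1) had 86.3 and 79.1 RPKM in ABA fruit at day 5, against 42.6 and 48.7 in water fruit at day 5 (0.85, adjusted p = 0.0021). Water fruit had 70.2 ± 1.56 RPKM at day 8, against 10.9 ± 0.0251 at day 0 (2.58, adjusted p = 2.2e-08), a comparison in which 7 of the list rose and 5 fell (27.3%, against 10.6% of all). The NINJA-family protein AFP3 (comp106791_c0_seq1), of a subfamily that in Arabidopsis restrains ABA signalling, had 17.8 and 14.4 RPKM in ABA fruit at day 8, against 5.65 and 5.99 in water fruit at day 8 (1.32, adjusted p = 0.0023). In ABA fruit against NDGA fruit, 8 of the 44 (18.2%) were higher and 0 lower at day 5, and likewise at day 8, where 3.05% and 3.95% of all tested transcripts were higher at days 5 and 8. With NDGA against water, 3 (6.82%) fell and 0 rose at each day, where 0.802% of all were lower at day 5 and 1.48% at day 8.

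Of 16 tested transcripts of MYC and related factors, the partners of JAZ proteins, 0 were called with ABA at day 5, where 2.16% of all tested transcripts were, and 1 rose and 3 fell at day 8, where 4.30% of all were higher and 8.98% lower. A transcript of bHLH3, in Arabidopsis a repressor that competes with MYC factors, was lower with ABA at day 8 (comp117761_c0_seq1, 4.03 and 4.37 RPKM, against 9.59 and 9.74 in water fruit, -1.04, adjusted p = 0.0042). The most abundant bHLH3 form (comp117843_c0_seq5) had 15.4 ± 0.497 RPKM in ABA fruit at day 5 and 17.5 ± 1.99 in water fruit at day 5 (adjusted p = 0.821). In water fruit at day 8, MYB21, a factor of jasmonate-dependent stamen growth in Arabidopsis, had 15.2 ± 1.19 RPKM, against 2.76 ± 2.14 at day 0 (comp97861_c0_seq1, adjusted p = 0.00028).

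DELLA proteins, the gibberellin repressors that bind JAZ proteins, had 8 tested transcripts. With ABA, 0 were called at day 5, near the 2.16% called over all tested transcripts. At day 8, 1 fell, or 12.5% of them, near the 13.3% called over all. DELLA protein GAI (comp116278_c0_seq3) had 20.3 ± 2.42 RPKM in ABA fruit at day 8, against 33.9 ± 4.17 in water fruit at day 8 (-0.71, adjusted p = 0.0029). In water fruit 4 of the 8 fell and 0 rose at day 8 against day 0, where 5.68% of all were lower. DELLA protein SLR1 (comp116278_c0_seq2) had 82.2 ± 15.8 RPKM in ABA fruit at day 5 and 80.7 ± 0.133 in water fruit at day 5. Of 8 tested transcripts for jasmonate conjugation and breakdown, 0 were called with ABA at day 5, near the 2.16% of all tested transcripts. At day 8, 1 rose and 1 fell, where 4.30% of all tested transcripts were higher and 8.98% lower. The most abundant, ILR1-like 6 amidohydrolase (comp118262_c0_seq5), had 4.76 ± 0.674 RPKM in ABA fruit at day 5 and 8.59 ± 2.34 in water fruit at day 5, and 4.92 ± 0.921 in ABA fruit at day 8 and 6.74 ± 1.34 in water fruit at day 8, with no call. The 6 tested GATA factors that carry a TIFY domain had 0 calls against water with ABA or NDGA. Over all tested transcripts 2.16% and 13.3% were called with ABA at days 5 and 8, and 2.03% and 2.18% with NDGA. With so few transcripts, 0 calls are near these shares. In water fruit 3 of the 6 rose at day 5 against day 0, where 4.98% of all were higher. GATA transcription factor 25 (comp108335_c0_seq1) had 41.8 ± 3.32 RPKM in ABA fruit at day 5 and 39.9 ± 5.19 in water fruit at day 5.

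Of 45 tested transcripts for wound and jasmonate response proteins, 0 rose and 4 fell with ABA at day 5 (8.89% of the list, against 0.956% of all tested transcripts as lower). At day 8, 4 rose and 8 fell (26.7%, against 13.3% called over all). Polyphenol oxidase (comp95907_c0_seq1), a browning enzyme, had 4.36 and 6.39 RPKM in ABA fruit at day 5, against 17.4 and 16.9 in water fruit at day 5 (-1.53, adjusted p = 0.0046). Wound-induced protein 1 (comp101560_c0_seq2), named for its induction in wounded potato, had 1784 and 1735 RPKM in ABA fruit at day 8, against 962 and 1019 in water fruit at day 8 (0.83, adjusted p = 1.8e-07). It was also higher in NDGA fruit at day 8, at 1351 ± 21.3 RPKM (0.45 against water, limma adjusted p = 0.00034). ABA fruit were above NDGA fruit there by 0.38 (adjusted p = 0.00025). Water fruit were higher at day 8 than at day 0 (990 ± 39.9 RPKM, against 355 ± 6.13). The plot of the lists shows their changes with ABA at both days.

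**Figure D4:**
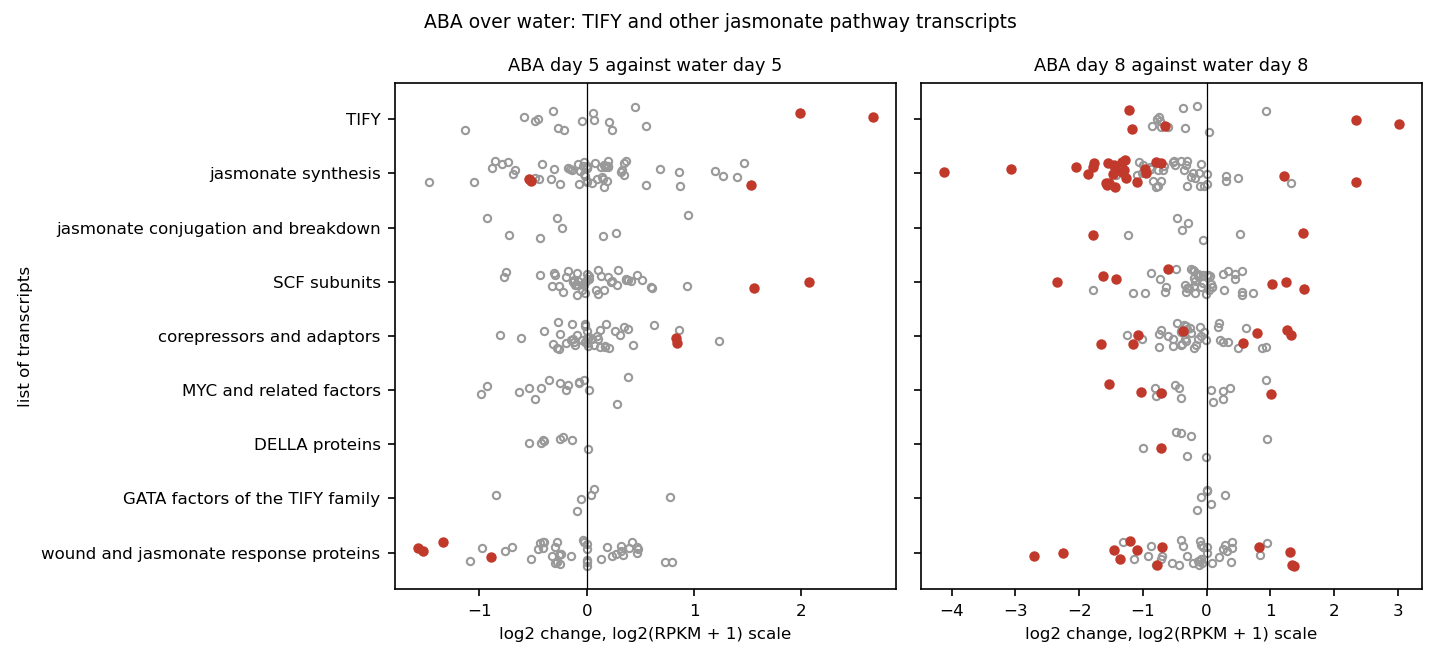
Log2 change, on the log2(RPKM + 1) scale, of each tested transcript of the TIFY and other jasmonate pathway lists in ABA fruit over water fruit at day 5 (left) and day 8 (right, wider axis); filled red points have a limma adjusted p below 0.05 and the vertical spread within a list has no meaning. At day 8, 24 of 61 jasmonate synthesis transcripts lie below 0 as called falls, and TIFY holds 2 called rises and 3 called falls.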

How the data were processed

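The mRNA values are the authors' RPKM per assembled transcript, per the file headers, with the length of each transcript in the same table. The aligner and counter are not named in the sources used here. Multiplied by length, 100% of the values gave whole numbers of reads, to within 0.1. The authors' 7 columns of group means were not used, nor were 8 lines that name no transcript. No genome coordinates exist for these assembled transcripts in the files, and no sequences are used here.

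The 99136 transcripts that reached 1 RPKM in 2 or more libraries were tested with limma 3.58.1 in R 4.3.3 on log2(RPKM + 1), all 7 groups in 1 fit with 7 residual degrees of freedom, no covariate, and Benjamini-Hochberg adjustment over all tested transcripts. Alternatives were a pseudocount of 0.1, no filter, a filter at 5 RPKM, quantile or median-ratio scaling, a replicate block, fits on the compared groups alone, voom on the recovered reads, sums per assembly component, and each library left out. On simulated data for ABA against water at day 8 (92002 transcripts), 30%, 80%, 94% and 94% of transcripts changed by 1, 2, 3 and 4 on the log2 scale were called. There, 26 of 175 calls were unchanged transcripts, or 3 of 139 among those with 5 RPKM or more in the higher group. The simulated spread between replicates was a fixed value, not fitted to these libraries, and changes were planted only in transcripts with enough expected reads. These rates may therefore be too favourable for the real data, above all for low transcripts.

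Replicates differed beyond counting noise (median chi-square of 1.19 to 1.51 per transcript, against 0.455). Members were found by their description. Described in full were the most abundant member of each TIFY name, TIFY 11A comp104462_c1_seq3, TIFY 5A comp89542_c0_seq1 and members called in any comparison with 5 RPKM or more in the higher group. Each pathway list gives its smallest adjusted p, or its most abundant member where none passed, for 3 comparisons. The members and lists were chosen with earlier results of these data known. Tables were made with Python 3.11.15, pandas 2.3.3 and numpy 2.4.6 and plots with matplotlib 3.10.9.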

Additional observations from a re-analysis of the deposited data

Results flagged for a closer look

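TIFY 11A (comp104462_c1_seq3) drew attention because its ABA difference was not the same at both days. The log2 difference between ABA and water fruit was 3.02 at day 8 and 0.55 at day 5, and the difference of these differences was 2.47 ± 0.22 (SE, limma adjusted p = 2.3e-05), with a 95% interval of 2.00 to 2.94.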

How the results depend on the processing

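Of 40 calls on the 16 TIFY transcripts, each under 23 alternatives (22 for the TIFY 9 call, whose transcript is below the filter at 5 RPKM), 25 held under all but, at most, the fit on the compared groups alone, 7 of them under all, and 0 reversed. Over these alternatives 785 of 919 values kept their call, and a pseudocount of 0.1 lost 7, no filter 5, quantile scaling 5, and median-ratio scaling and voom 2 each. Fits on the compared groups alone lost 33 of the 40 and left 2 calls in water day 5 against day 0, 2 in water day 8 against day 0, 1 each in ABA day 8 against water and against NDGA, and 0 in the other 2-group comparisons. Fewer libraries enter such a fit. Water day 8 against day 5 gave 0 calls with no filter or quantile scaling, 3 with the filter at 5 RPKM, and 2 with component sums or the replicate block. ABA against water at day 5 gave 1 with a pseudocount of 0.1 or no filter and 4 with the filter at 5 RPKM, and NDGA against water at day 5 gave 1 with a pseudocount of 0.1, no filter or quantile scaling. Component sums gave 8 for ABA day 8 against water and 12 against NDGA, counting each transcript by its component. The filter at 5 RPKM called 2 for the difference of the ABA changes. Except where said, the cause was not tested.

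With 1 library left out, the calls ranged from 6 to 8 (water day 5 against day 0), 3 to 7 (day 8 against day 0), 0 to 1 (day 8 against day 5), 1 to 2 (ABA and NDGA day 5 against water), 4 to 5 (ABA day 8), 1 to 1 (NDGA day 8), 3 to 7 and 5 to 7 (ABA against NDGA at days 5 and 8), and 1 to 1 and 0 to 1 (differences of the ABA and of the NDGA changes). A group left with 1 library is assumed to vary like the others. Between libraries of equal replicate number, the correlation of their deviations was 0.0503 to 0.101 over 21 group pairs and above 0.1 in 1. The median was 0.0652, and all were positive. Whether equal replicate numbers mark paired libraries was not tested. Over all tested transcripts, the replicate block gave more calls in every comparison, such as 14048 against 12766 for water day 5 against day 0. The replicate block kept all 40 calls and gave 9 calls for water day 5 and 7 for water day 8 (both against day 0), 2 between these later days and 8 for ABA against NDGA at day 8, with the other counts as without it. Depth limits low members: at 0 to 14 reads, as for TIFY 9, single reads move the level.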
